A study of Mus musculus with 8 samples.

Results

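The genes described here encode 6 proteins of the acute-phase response that cells secrete: Saa3, Hp, Serpina3n, Lcn2, Cp and Orm1. They were followed on 8 single-colour Affymetrix mouse arrays through every probe set that the array's annotation ties to exactly 1 gene symbol among these 6, which gave 7 probe sets of 12488 on the array. The genes were put together because of their acute-phase roles and with the difference between the groups already known, so their differences between the groups are given as a description, with no p-value, and a count of calls only beside the share of all probe sets called. The RNA is labelled as coming from mouse aortic endothelial cells, which form the inner lining of that vessel. In the confluent group (4 arrays) the cells formed a mature monolayer, and in the subconfluent group (4 arrays) the cultures covered less than 50% of the surface. The labels give the same number of cells for each sample. No genotype, strain, age, passage or treatment is given in the labels, and beyond a number from 1 to 4 in each group nothing says how the cultures were kept apart, so p-values measure only the spread between these samples. Replicate numbers are used as pairs because same-numbered arrays departed from their group means in the same direction. The pairing was thus read from the same signals that the paired fit uses, and the labels do not say what such arrays share. Pairs 1 and 3 each came from 1 chip lot, and the part of chip lot or scale factor in this likeness was not tested.

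The acute-phase response is the change in secreted plasma proteins that follows infection or injury. It is best known in liver, where interleukin-1 and tumour necrosis factor act through NF-kB, and cytokines of the interleukin-6 family act through the shared receptor chain gp130 and the transcription factor STAT3, with C/EBP factors at many of the target promoters. Vascular, adipose and stromal cells can make some of the same proteins outside the liver. Saa3 is a serum amyloid A made mainly outside the liver in mice, Hp (haptoglobin) binds free haemoglobin, Serpina3n is a serine protease inhibitor, Cp (ceruloplasmin) is a copper-carrying ferroxidase, and Lcn2 and Orm1 are lipocalins, of which Lcn2 binds bacterial siderophores.

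Promoter sequence was available in the RefSeq table of build GRCm38.p6 for 4 of the 6 genes, with 1 start each for Saa3, Serpina3n and Lcn2 and 2 for Cp. The 250 bases before the start are shown 5′ to 3′ because Saa3, Serpina3n and Cp were lower together in subconfluent cells while the probe sets of Lcn2 differed less. Capitals mark matches to the C/EBP motif TTNNGNAA on either strand. For Cp the first listed start is shown. The gene spans of the same build reach further upstream than these starts for Saa3 (to 46719615), Serpina3n (to 104406646) and Cp (to 19956933). The Saa3 window therefore lies inside the annotated gene span, and the Serpina3n and Cp windows overlap theirs.
Saa3, chr7:46715677-46715926, strand -: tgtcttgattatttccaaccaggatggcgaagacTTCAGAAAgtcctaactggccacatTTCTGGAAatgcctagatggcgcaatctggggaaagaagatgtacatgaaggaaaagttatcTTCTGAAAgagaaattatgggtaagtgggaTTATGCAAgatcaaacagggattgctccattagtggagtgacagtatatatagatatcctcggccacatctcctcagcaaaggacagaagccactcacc
Serpina3n, chr12:104406458-104406707, strand +: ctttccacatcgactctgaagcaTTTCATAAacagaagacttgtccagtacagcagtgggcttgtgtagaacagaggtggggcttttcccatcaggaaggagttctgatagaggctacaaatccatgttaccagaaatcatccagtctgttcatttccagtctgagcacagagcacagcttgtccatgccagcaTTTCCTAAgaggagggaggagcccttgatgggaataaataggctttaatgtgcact
Cp, chr3:19956804-19957053, strand +: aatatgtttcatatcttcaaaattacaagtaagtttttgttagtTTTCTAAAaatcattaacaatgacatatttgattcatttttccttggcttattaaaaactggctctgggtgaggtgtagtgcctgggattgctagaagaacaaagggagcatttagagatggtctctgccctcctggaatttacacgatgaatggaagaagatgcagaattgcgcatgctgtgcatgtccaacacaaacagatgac
Lcn2, chr2:32387740-32387989, strand -: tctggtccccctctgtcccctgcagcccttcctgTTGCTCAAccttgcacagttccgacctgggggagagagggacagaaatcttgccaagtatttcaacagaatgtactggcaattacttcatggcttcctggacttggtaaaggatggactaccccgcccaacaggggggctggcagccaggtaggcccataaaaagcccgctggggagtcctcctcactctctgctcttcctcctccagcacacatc
The Saa3 window held 4 matches, among them TTATGCAA at positions -99 to -92 from the start, the Serpina3n window 2, and the Lcn2 and Cp windows 1 each. The window before the other Cp start held 1 match, TTTTGCAA at -70 to -63. Among all 32851 promoters listed there, 36.8% held at least 1 such match in the same 250 bases. No match to the NF-kB consensus or to the STAT motif TTCNNNGAA was found in the 5 windows, and these letters occurred in 3.90% and 7.02% of all promoters. A match or its lack in this stretch says nothing of which factors bind there.

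Some facts of the whole series bear on these values. Signals were scaled by the authors to a target of 500 per array, with scale factors from 3.05 to 13.3, highest on replicate 2 of both groups. The labels' pixel noise multiplied by the scale factor came to between 7.19 and 21.6 signal units, and values near it carry little information. Of 24 endothelial markers on the array 6 reached a mean signal of 200, with the highest means for Ly6e (4085), Vcam1 (3955) and Cd34 (1442), none of them specific to endothelial cells, and with Eng at 832. The more specific markers Cdh5, Tek and Vwf had means of 12.96, 11.2 and 23.3, while 10 of 17 fibroblast and pericyte markers reached it, led by Col1a1 with a mean of 18573. The summed signal of the fibroblast and pericyte markers was 63255 to 94301 on confluent and 36410 to 51214 on subconfluent arrays, so it moved in the same direction as the acute-phase genes, and its part in their differences was not tested. Within the confluent group this sum was 94301 on replicate 1, where Saa3, Serpina3n and Cp were also highest, and 76505, 75310 and 63255 on replicates 2 to 4. Replicate 1 also had the highest confluent sum of the endothelial, adipocyte, smooth muscle, and epithelial and mesothelial markers given below. This was not so for the macrophage, hepatocyte or neutrophil markers. The adipocyte sum was 3843, 1594, 2546 and 2918 on confluent replicates 1 to 4, the order of Saa3, Serpina3n and Cp. This order came from Lpl, which read 2805, 778, 1495 and 1803 there and 353 to 423 on the subconfluent arrays. Lep went the other way, with 368 to 685 on confluent and 715 to 968 on subconfluent arrays. Dcn, a proteoglycan of fibroblasts, named after its values were seen, read 20662, 10715, 11854 and 15601 on confluent replicates 1 to 4. That is the order of Saa3, Serpina3n and Cp, and on the subconfluent arrays Dcn read 2687 to 4587. Pdgfra and Lum, named in the same way, shared this order. The brightest markers of the list, Col1a1, Col1a2 and Fbln2, did not. Col1a1 read 20934, 22732, 24709 and 15455 on confluent replicates 1 to 4, and Col1a2 19553, 19849, 21697 and 15525. On the subconfluent arrays Col1a1 read 10623 to 19957, which overlaps its confluent range, and Col1a2 7057 to 12067, which does not. Fbln2 went the other way from the sum, with 7946 to 12659 on confluent and 9506 to 12850 on subconfluent arrays. It was higher on the subconfluent array of each pair. The endothelial sum was 12178 to 14594 against 8588 to 12968. Macrophage markers, of which 2 of 20 reached 200, summed to 3295 to 4595 against 2554 to 3286, mostly through Cd14 (mean 2031), with Adgre1 at 27.9 and Ptprc at 11.2. Hepatocyte markers reached 200 in 2 of 18 cases (Cyp2e1, mean 323, and G6pc, 227), with Alb at 38.7 and Fgb at 14.0, and summed to 1311 to 1694 against 1104 to 1498. Neutrophil markers reached it in 2 of 15 cases (Csf3r, mean 921, and Elane, 314; Ly6g at 56.3) and summed to 2149 to 2556 against 1545 to 2647. Adipocyte markers reached it in 2 of 10 cases (Lpl, 1054, and Lep, 676; Adipoq at 49.7) and summed to 1594 to 3843 against 1412 to 1993. Smooth muscle markers (4 of 9) summed to 3617 to 5577 against 2379 to 10756, and epithelial and mesothelial markers (3 of 13, led by Upk3b with a mean of 1568) to 2486 to 6031 against 1984 to 2861. In such bulk RNA, fewer cells of a type and less RNA per cell cannot be told apart.

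Saa3 was the gene with the widest difference in the series, abundant in confluent cells and near the noise on some subconfluent arrays. Its signal was 14363, 2490, 3755 and 10656 on confluent replicates 1 to 4 and 153.9, 26.2, 16.3 and 585.9 on subconfluent replicates 1 to 4. The groups did not overlap, and the lowest confluent value was 4.25 times the highest subconfluent one. Replicates 1 and 4 were high in both groups and replicates 2 and 3 low in both. The means were 7816 ± 5651 and 196 ± 268 (SD, n = 4), and the difference of log2(signal + 50), the scale used for all differences here, was -5.28, or 38.8-fold lower in subconfluent cells. Within the pairs the fold ran from 16.8 in pair 4 to 70.7 in pair 1. On subconfluent replicates 2 and 3 the signal of Saa3 was close to the scaled noise of 21.6 and 15.3, so for these arrays the fold depends on the constant added. With a constant of 1 in place of 50 the overall fold of Saa3 was 76.1, with 150 it was 22.3, and without subconfluent replicate 4 it was 61.5.

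**Figure D1:**
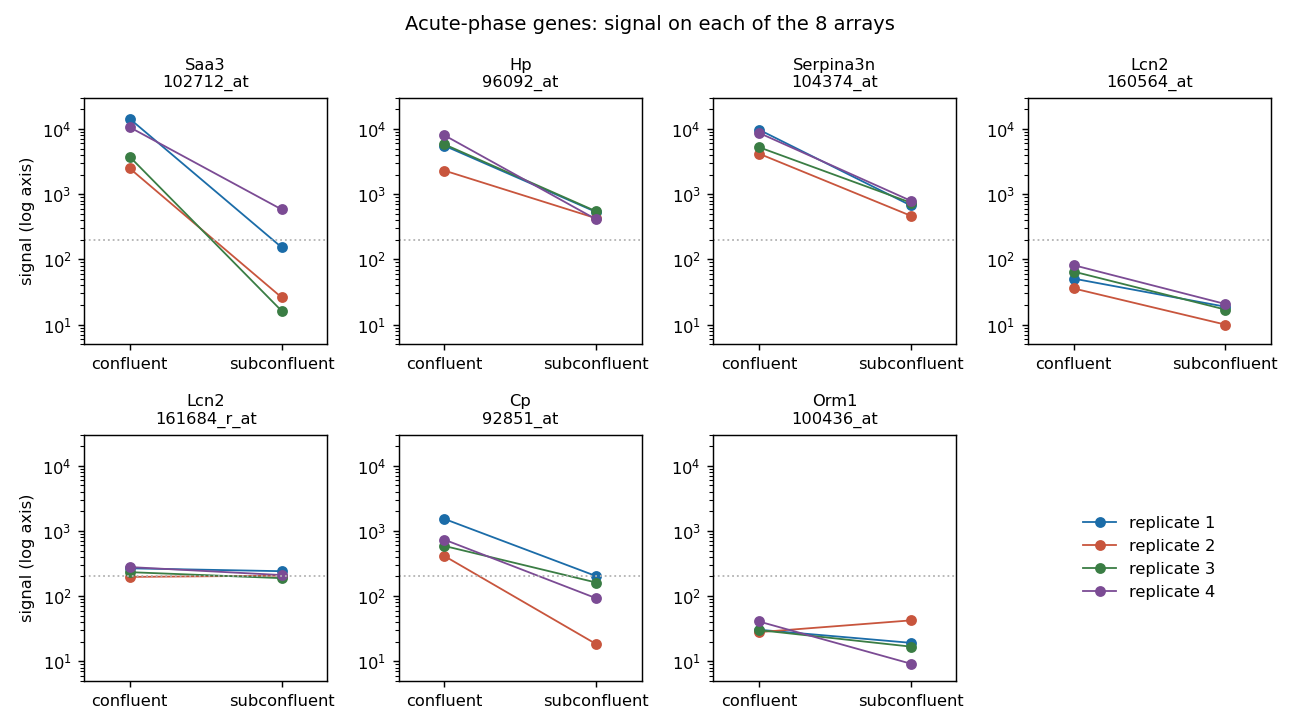
Signal (log axis) of the 7 probe sets on the 4 confluent and 4 subconfluent arrays. Points are arrays, lines join arrays with the same replicate number, and the dotted line is a signal of 200, the minimum mean for testing. Saa3, Hp, Serpina3n and Cp are lower on every subconfluent array than on any confluent one, while Orm1 stays between 9.20 and 42.4.

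Hp and Serpina3n were lower in subconfluent cells by nearly the same factor. Hp had signals of 5553, 2307, 5827 and 8030 on confluent replicates 1 to 4 and 534.1, 428.1, 546.9 and 412.3 on subconfluent replicates 1 to 4. The subconfluent values lay close together, within 1.33-fold of each other, whereas the confluent values spanned 3.48-fold with replicate 2 lowest. The means of Hp were 5429 ± 2358 and 480 ± 69.9 (SD, n = 4), and its log2 difference was -3.25, or 9.50-fold lower. Serpina3n had signals of 9787, 4195, 5267 and 8731 on the confluent arrays and 673.4, 467.7, 741.9 and 794.8 on the subconfluent arrays. Here too the groups did not overlap, and replicate 2 was lowest in both. The means of Serpina3n were 6995 ± 2686 and 669 ± 143 (SD, n = 4), and its log2 difference was -3.23, or 9.39-fold lower. Within pairs the fold of Hp ran from 4.93 (pair 2) to 17.5 (pair 4), and that of Serpina3n from 6.71 (pair 3) to 13.6 (pair 1). Over the 8 arrays the profiles of the pair Hp and Serpina3n, each centred on its mean, differed by a root mean square of 0.36 log2 units, less than any other pair of these probe sets that includes Saa3, Hp, Serpina3n or Cp.

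Cp was lower as well, with more spread. Its signal was 1529, 412.8, 588.4 and 735.2 on confluent replicates 1 to 4 and 203.0, 18.4, 161.6 and 92.8 on subconfluent replicates 1 to 4. The groups did not overlap, although the lowest confluent value was only 2.03 times the highest subconfluent one, and subconfluent replicate 2 lay under its scaled noise of 21.6. The means of Cp were 816 ± 493 and 119 ± 81.0 (SD, n = 4), and its log2 difference was -2.36, or 5.14-fold lower, with a pairwise fold from 3.02 to 6.24 in pairs 1, 3 and 4. No fold is given for pair 2, whose subconfluent value was under the noise. With a constant of 1 in place of 50 the fold of Cp was 8.21, and with 150 it was 3.42. Ceruloplasmin occurs in a secreted and a membrane-anchored form, and the array's annotation does not say which of them the probe set detects.

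The lipocalins Lcn2 and Orm1 showed smaller log2 differences than the other 4 genes, and Orm1 and 1 of the 2 Lcn2 probe sets had low signal in both groups. The first Lcn2 probe set (number 160564) gave 50.8, 35.9, 65.1 and 81.7 on the confluent and 18.8, 10.0, 17.0 and 20.7 on the subconfluent arrays. These groups did not overlap, but all 8 values lay under 100 and the mean of 37.5 was below the minimum of 200, so this probe set was not tested and its log2 difference of -0.69 is shrunk by the constant of 50. The second (number 161684), whose suffix _r marks a probe set designed with fewer selection rules, gave 266.8, 197.1, 233.0 and 278.9 against 241.1, 205.8, 188.6 and 210.3. There the groups overlapped and the log2 difference was -0.16, so the probe sets of Lcn2 did not show the same difference. Orm1 (orosomucoid, an acid glycoprotein of plasma) gave 30.5, 28.0, 30.1 and 40.8 against 19.2, 42.4, 16.8 and 9.20, with overlap, a log2 difference of -0.21 and a higher value on the subconfluent array in pair 2. A further probe set that the annotation assigns to both Orm1 and Orm2 read between 17.2 and 123.7. On subconfluent replicates 3 and 4 the Orm1 values stood beside a scaled noise of 15.3 and 7.19.

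**Figure D2:**
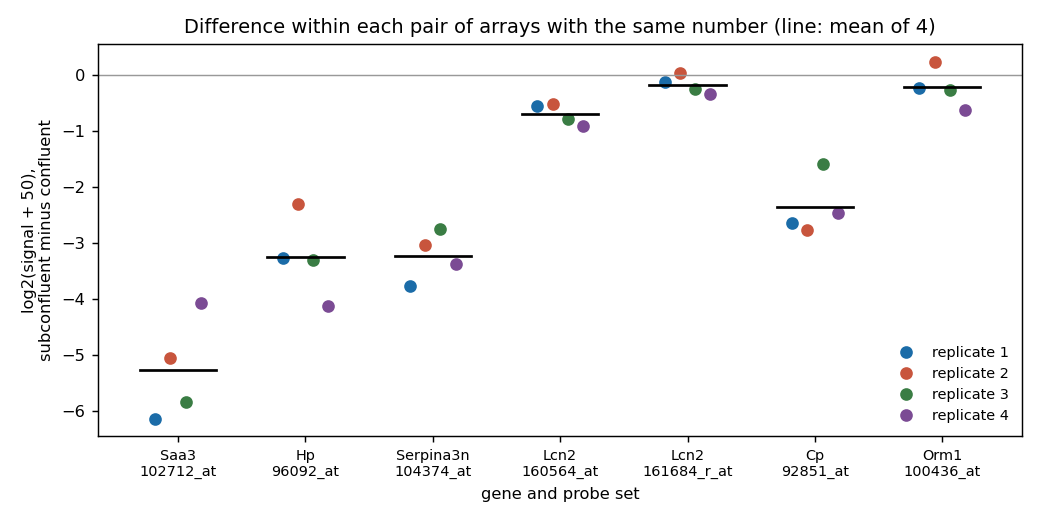
Difference of log2(signal + 50), subconfluent minus confluent, within each of the 4 pairs of arrays with the same number, for the 7 probe sets; lines are the means over the pairs. All 4 pairs lie below 0 for Saa3, Hp, Serpina3n, Cp and the first Lcn2 probe set, and pair 2 lies above 0 for the second Lcn2 probe set and for Orm1.

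Of the 7 probe sets 5, from 5 genes, reached a mean signal of 200, Saa3 and Cp through their confluent arrays. By limma's unpaired fit over all 6007 probe sets tested 4 of these 5 were lower in subconfluent cells at an adjusted p under 0.05, as were 4.06% of all probe sets (6.81% in either direction). With the pairs as a block it was 4 of 5 again, against 11.3% lower, 9.94% higher and 21.2% in either direction. Groups without overlap, with the subconfluent values lower, were seen in 4 of the 5, against 8.54% of all tested probe sets, and in 5 of the 7, against 5.87% without the filter. Values lower in all 4 pairs were seen in 4 of the 5 and 5 of the 7, against 22.1% and 17.1%. The members were chosen on this contrast, so nothing is read from these counts. The median log2 difference was -3.23 over the 5 and 0.01 over all probe sets tested.

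How the replicates differed among themselves was not part of the choice. The confluent SD of log2(signal + 50) was 1.19 for Saa3, 0.76 for Hp, 0.58 for Serpina3n and 0.75 for Cp, against a median of 0.27 over all tested probe sets. These SDs exceeded those of 99.4%, 96.6%, 91.2% and 96.3% of tested probe sets. In the subconfluent group the SD of Saa3 (1.51) and Cp (0.84) exceeded those of 99.8% and 98.2% of probe sets, while that of Hp (0.19) exceeded 31.0% and that of Serpina3n (0.31) 65.8%, beside a median of 0.25. Saa3 and Cp reached the signal minimum through their confluent arrays, and some of their subconfluent values were near the scaled noise. Their subconfluent percentiles thus set them beside brighter probe sets, and the part of low signal in them was not tested. Confluent replicate 2 was the lowest confluent array for all 7 probe sets, as it was for 21.5% of all 12422 probe sets that are not controls. Saa3, Serpina3n and Cp ranked the confluent arrays alike, replicate 1 highest, then 4, 3 and 2, an order found in 6.36% of tested probe sets. The scale factor was highest on replicate 2 in both groups, and its part in these orders was not tested.

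Chip lots differed between arrays. Lot A held replicate 1 of both groups, and lot C held confluent replicate 3 with subconfluent replicates 3 and 4. Within lot A, 1 array against 1, the log2 differences were -6.14 for Saa3, -3.26 for Hp, -3.77 for Serpina3n and -2.64 for Cp. Within lot C, 1 against 2, they were -4.21, -3.48, -2.70 and -1.88. All 4 genes were lower within each lot that held both groups. This direction was fixed in advance, because their groups did not overlap on any arrays, so nothing about chip lot is read from it. With lot as a block in the fit the values were -5.04, -3.39, -3.16 and -2.20.

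The genes closest to each member were those with the smallest root mean square difference between centred log2 profiles over the 8 arrays, among 4665 genes. Such likeness rests mostly on the difference between the groups and is a description. Closest to Hp were Gas6, a ligand of receptor kinases of the Axl family (0.37), the glutathione transferase gene Gstt1 (0.55) and the matrix protease gene Mmp3 (0.55), where the median over all genes was 1.71. Closest to Serpina3n were Cpxm1, a secreted carboxypeptidase-like protein (0.42), Gas6 (0.45) and Gstt1 (0.46). Cp was followed most closely by Tmem176a (0.29), the microsomal glutathione transferase gene Mgst1 (0.32) and Clca3a1 (0.38). Saa3 had no close neighbour: the nearest were Cpxm1 (1.34), the cholesterol exporter gene Abca1 (1.46) and the chaperone gene Clu (1.505), all with smaller differences between the groups than Saa3. Abca1 shared with Saa3 the high value on subconfluent replicate 4, where its signal was 373.3 against 26.0 to 242.3 on the other subconfluent arrays. The remaining probe sets were closest to Sptlc2, Cdk2ap2 and Igf2r (0.13 to 0.14) for the first Lcn2 probe set, whose own groups did not overlap, Pdia6, Ctnnb1 and Cript (0.06 to 0.08) for the second, and Osbp, Galnt4 and H2-M2 (0.09 to 0.10) for Orm1.

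**Figure D3:**
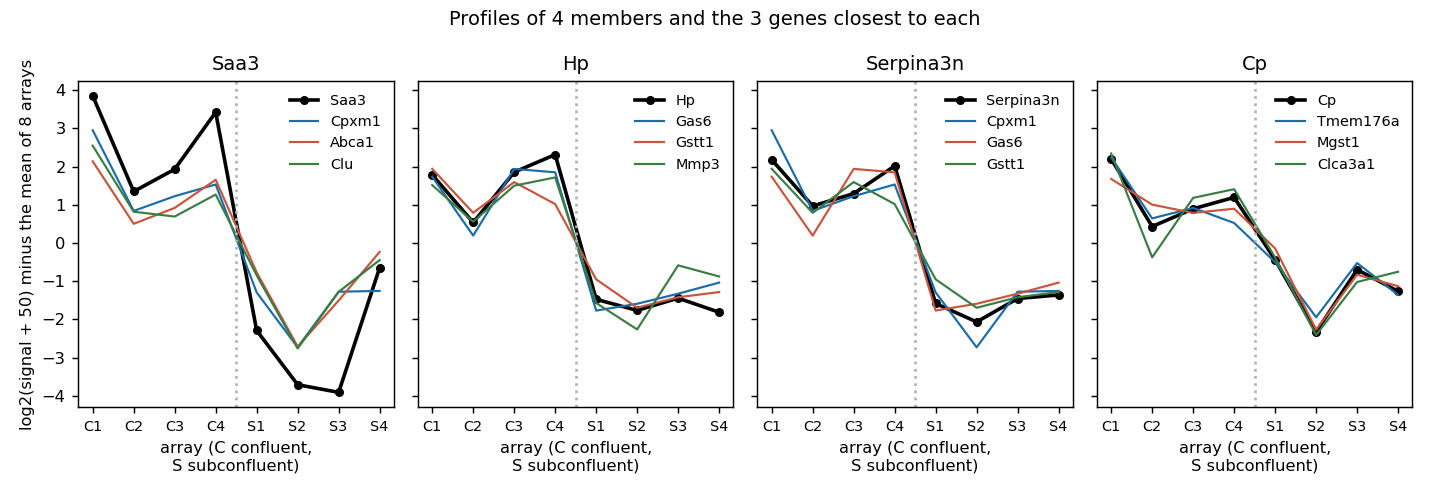
Log2(signal + 50) on each array minus the mean of the 8 arrays, for Saa3, Hp, Serpina3n and Cp (black) and the 3 genes closest to each (colours); C1 to C4 are confluent and S1 to S4 subconfluent replicates. The neighbours of Hp, Serpina3n and Cp run within 0.55 log2 units root mean square of them, whereas those of Saa3 differ by 1.34 or more.

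Other secreted or induced proteins of the acute phase were measured from a list of 50 genes, of which 35 were on the array and 13 were tested. Of these 13, 6 fell in subconfluent cells and 0 rose (8 at an unadjusted p under 0.05), against 4.06% and 2.75% of all probe sets, and the median log2 difference was -0.70, beside 0.01 for all. Lbp, which carries bacterial lipopolysaccharide to Cd14, had confluent signals of 2327, 882.5, 1174 and 1026 and subconfluent signals of 267.1, 172.6, 296.4 and 335.9. It was lower on every subconfluent array than on any confluent one and fell 4.19-fold (limma log2 -2.07 ± 0.28 SE, adjusted p = 0.00362). C1ra, a protease of the first complement component, fell 3.06-fold (limma adjusted p = 0.0100), and Serping1, the inhibitor of that protease, 2.77-fold (limma adjusted p = 0.0274). The metallothionein genes Mt1 and Mt2, whose products bind zinc and copper, fell 2.19-fold and 2.84-fold (limma adjusted p = 0.0253 and 0.0365). Saa2, a liver-type relative of Saa3, fell 2.17-fold from 371 ± 46.2 to 148 ± 51.5 (SD, n = 4; limma adjusted p = 0.0179), but the suffix of its probe set stands for probes common to several related genes, as does that of C1ra, and whether Saa3 transcript contributes to the Saa2 signal was not tested. In these 6 genes the groups did not overlap and all 4 pairs were lower, as was so for 8.54% and 22.1% of all tested probe sets. The 6 were named for passing the test on the same values, so this adds no support. Lbp and C1ra passed without each of the 8 arrays in turn, with adjusted p up to 0.0156 and 0.0298. Saa2 did not pass without confluent replicate 3 (limma adjusted p = 0.0549), and it reached the signal minimum for testing through its confluent arrays. Serping1 and Mt1 did not pass without confluent replicate 3 or 4 or subconfluent replicate 1, 2 or 4, nor did Mt2 without these or confluent replicate 1, with adjusted p up to 0.0712, 0.0700 and 0.0924. The count that fell was 2 without confluent replicate 3 and 3 without confluent replicate 4 or subconfluent replicate 1, 2 or 4. Of the 16 genes of plasma proteins that liver lowers in the acute phase 13 were on the array and 1 was tested, Igf1 (log2 -0.25, limma adjusted p = 0.554). Among those under the signal minimum Ttr, named after its values were seen, read 149.1, 151.2, 139.1 and 107.1 against 14.3, 49.8, 25.6 and 49.0 (log2 -1.16). Ttr, Ahsg and Apoa1 were lower in subconfluent cells without overlap, as were 5.87% of all probe sets without the filter. Ahsg and Apoa1 were at low signal. Their lowest confluent and highest subconfluent values lay close together, 22.2 and 18.5 for Ahsg and 37.1 and 36.4 for Apoa1. In the other genes of this list the groups overlapped.

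In the interleukin-6 pathway 16 of 32 listed genes were tested, and by limma's unpaired fit 1 fell and 0 rose (6 at an unadjusted p under 0.05), a share near the 4.06% of all probe sets that fell, while with the pairs as a block 5 fell, against 11.3% of all probe sets in that fit. The median log2 difference was -0.48, beside 0.01 for all. The gene that fell in the unpaired fit was Lifr, the receptor chain for leukaemia inhibitory factor (1.94-fold lower, limma adjusted p = 0.0249, groups without overlap). Its call was lost without confluent replicate 3 or 4 or subconfluent replicate 1 or 2, with adjusted p up to 0.0691. Osmr, the oncostatin M receptor chain, had signals of 3620, 2074, 2893 and 3448 against 1511, 370.0, 1624 and 1642. Its groups did not overlap, and its log2 difference was -1.36 (limma adjusted p = 0.0675; 0.00584 in the paired fit). Il6st, which encodes gp130, stood at -0.82 (limma adjusted p = 0.0892; 0.00653 with the block), lower in all 4 pairs. Named beyond the rule for their roles, the transcription factor gene Stat3 stood at -0.53 (limma adjusted p = 0.166; 0.0327 with the block) and its feedback inhibitor gene Socs3 at -0.69 (limma adjusted p = 0.371; 0.108 with the block). The interleukin gene Il6 itself lay under the signal minimum, between 10.1 and 115.1.

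In the list of interleukin-1, tumour necrosis factor, Toll-like receptor and NF-kB genes, 3 of 18 tested members (46 listed, 32 on the array) fell and 0 rose (5 at an unadjusted p under 0.05), against 4.06% and 2.75% of all probe sets, with a median of -0.24 beside 0.01 for all. They were the NF-kB subunit gene Relb (2.03-fold lower, limma adjusted p = 0.0414), the tumour necrosis factor receptor gene Tnfrsf1a (1.92-fold, limma adjusted p = 0.0383) and the receptor-associated kinase gene Irak1 (1.58-fold, limma adjusted p = 0.0385). Each was without overlap between the groups, as were 8.54% of all tested probe sets in this direction, and the same values gave the calls. All 3 calls were lost when any array but confluent replicate 2 was left out, with adjusted p up to 0.0997, and all 3 passed with the pairs as a block. The count was 0 in each of those 7 fits and 5 without confluent replicate 2. Relb reached the signal minimum for testing through its confluent arrays, with a mean of 373 there against 158 on the subconfluent arrays. The NF-kB subunit gene Rela (-0.18, limma adjusted p = 0.511) and the inhibitor gene Nfkbia (-0.17, limma adjusted p = 0.583), named beyond the rule for their roles, had overlapping groups.

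**Figure D4:**
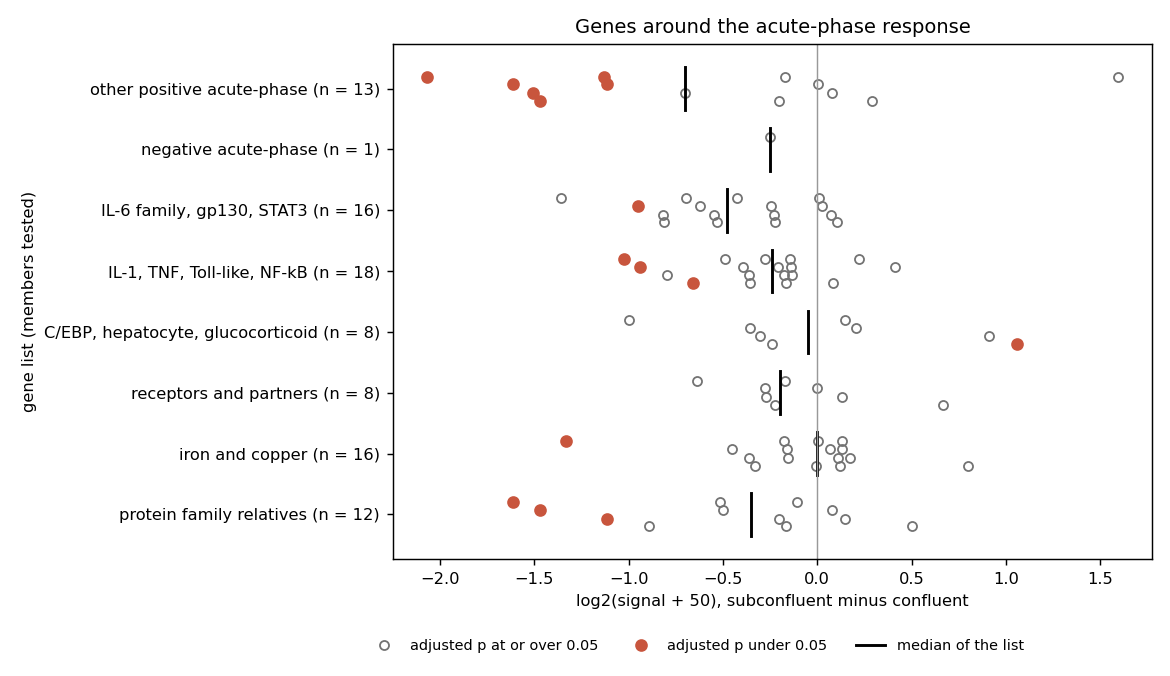
Difference of log2(signal + 50), subconfluent minus confluent, of the tested members of 8 gene lists, without the 6 genes described above; each point is a gene, filled where the limma adjusted p is under 0.05, and vertical lines are list medians. Filled points lie below 0 except Sgk1, and Lbp is the lowest at -2.07.

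Among C/EBP, hepatocyte and glucocorticoid regulators 1 of 8 tested genes (26 listed, 23 on the array) rose and 0 fell (2 at an unadjusted p under 0.05), against 2.75% and 4.06% of all probe sets, with a median of -0.05. That gene was Sgk1, a kinase gene induced by glucocorticoids and serum, with signals of 1438, 1084, 1219 and 1870 against 3080, 2124, 3031 and 3624. It rose 2.08-fold (limma adjusted p = 0.0195) in all 4 pairs, a call lost without confluent replicate 3 or subconfluent replicate 1 or 4 (adjusted p up to 0.0603). Cebpd, a C/EBP factor of the acute phase, had signals of 3648, 2065, 3880 and 4588 against 1814, 362.5, 2646 and 4283, with overlap (log2 -0.997, limma adjusted p = 0.316; 0.0487 in the paired fit). It shared with Saa3 a high value on subconfluent replicate 4, though not the low one on replicate 3. Foxa2 stood at 0.91 (limma adjusted p = 0.116; 0.0481 with the block). Cebpb, named beyond the rule, stood at -0.30 with overlap (limma adjusted p = 0.562).

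For the receptors and partners of the secreted proteins no change was found by the unpaired fit. Of 27 listed genes 19 were on the array and 8 were tested, and 0 passed limma's test (2 at an unadjusted p under 0.05; 1 rose in the paired fit), with a median of -0.20. Slc22a17, described as a receptor of Lcn2, stood at -0.64 (limma adjusted p = 0.182) and the endocytic receptor gene Lrp2, which also takes up Lcn2, at 0.67 (limma adjusted p = 0.112; 0.0411 with the block). Elane, a neutrophil protease, stood at -0.28 (limma adjusted p = 0.348). Among iron and copper genes, where ceruloplasmin acts by oxidising iron as it leaves the cell, 1 of 16 tested genes (39 listed, 26 on the array) fell and 0 rose (3 at an unadjusted p under 0.05), with a median of -0.00068, a share near the 4.06% of all probe sets. Hfe, a regulator of iron sensing, had signals of 519.3, 287.8, 415.3 and 359.3 against 166.8, 96.9, 143.2 and 97.4. It fell 2.52-fold without overlap (limma adjusted p = 0.0101), and passed without each of the 8 arrays in turn. Hfe reached the signal minimum for testing through its confluent arrays, with a mean of 395 there against 126 on the subconfluent arrays. The transferrin receptor gene Tfrc stood at 0.80, higher in all 4 pairs (limma adjusted p = 0.129; 0.00580 with the block), and the copper pump gene Atp7a at -0.45 (limma adjusted p = 0.164).

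Relatives of the 6 proteins by family (54 listed, 37 on the array, 12 tested) included 3 that fell, Saa2, Serping1 and C1ra, and 0 that rose (5 at an unadjusted p under 0.05), against 4.06% and 2.75% of all probe sets, with a median of -0.35. With the pairs as a block 5 fell and 1 rose, against 11.3% and 9.94%. The count that fell in the unpaired fit was 1 without confluent replicate 3. Over all 8 lists 86 different genes were tested, of which 11 fell and 1 rose, against 4.06% and 2.75% of all probe sets. With the pairs as a block 20 fell and 6 rose, against 11.3% and 9.94%.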

How the data were processed

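The deposited table held signal, 1 linear value per probe set and array, which the authors computed by Affymetrix's statistical algorithm, with a scaling target of 500, per the labels. No further normalization was applied. Of 12488 probe sets 66 were controls, and 10855 had 1 gene symbol in the platform annotation (10839 of these matched the RefSeq gene table by gene identifier). Testing was limited to the 6007 probe sets whose mean over the 8 arrays reached 200. Signals were compared as log2(signal + 50) with limma 3.58.1 in R 4.3.3 (lmFit, eBayes with trend, two-sided, Benjamini-Hochberg over all probe sets tested, threshold 0.05), unpaired, and again with the replicate number as a block. The deviations of same-numbered arrays from their group means correlated at 0.35 to 0.52, others at 0.07 at most, which is the basis for treating the numbers as pairs. The fit was tested on simulated data. Tables and plots used Python 3.11.15, pandas 2.3.3, numpy 2.4.6 and matplotlib 3.10.9.

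Genes outside the 6 were represented by their brightest probe set. Named genes were, per pathway list, those past the threshold up to 6 and otherwise the 3 with the smallest p; per marker list up to 3 genes with the highest signal; and per member the 3 closest profiles. Beyond this rule, defining markers at low signal (Cdh5, Tek, Vwf, Adgre1, Ptprc, Alb, Fgb, Ly6g, Adipoq), Eng, Dcn, Pdgfra, Lum, Ttr, Ahsg and Apoa1 were named to describe their lists, and other such genes are marked. The members and lists were chosen with earlier results of these data known. Promoters came from RefSeq (GRCm38.p6); the build of the array's annotation is not given in the sources used here. Alternatives were other constants, filters, quantile normalization, the pairs or chip lot as a block, single lots, averaged probe sets and leaving out each array. The number of arrays limits the precision.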

Additional observations from a re-analysis of the deposited data

Results flagged for a closer look

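Of 58 groups of 4 values examined (29 probe sets of members and of genes named by rule from the pathway lists, in both groups), 2 held an array whose gap to the nearest other value as a share of the group's range exceeded Dixon's critical value, and chance flags about 5% of groups. Genes named only as markers, as closest profiles or beyond the rule were not examined. Igf1 had a signal of 1422 on confluent replicate 3, against 880.5 to 950.4 on the other confluent arrays. Osmr had a signal of 370.0 on subconfluent replicate 2, the array with the highest scale factor, against 1511 to 1642 on the other subconfluent arrays. No value of the 6 acute-phase genes was set apart in this way.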

How the results depend on the processing

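The log2 differences of the 7 probe sets of the 6 genes kept their sign in all alternatives run (2 constants, quantile normalization, both blocks, single lots and leaving out each array). Where the groups did not overlap, leaving out arrays or taking single lots could not change the sign. Of 105 values, 100 moved by less than 1 pooled SD of the replicates. Leaving out 1 of 4 arrays cannot move a value that far, and the replicate block leaves it unchanged, so these fits were bound to be among the 100. For Saa3 and Cp this SD is wide. The fold of Saa3 (38.8) was 76.1 and 22.3 with constants of 1 and 150, 61.5 without subconfluent replicate 4, and 70.7 and 18.5 within lots A and C. That of Cp (5.14) was 8.21 and 3.42 with constants of 1 and 150. The 5 values that moved further were -1.74 and -0.32 for the first Lcn2 probe set and -0.72 for Orm1 with constants of 1, 150 and 1, and -3.77 and -2.70 for Serpina3n within lots A and C. The replicate block, with arrays of the same number as pairs, called 597 probe sets higher and 679 lower, in place of 165 and 244. In that paired fit 1 positive acute-phase gene rose, 5 interleukin-6 pathway genes fell, 2 C/EBP and related regulators rose and 1 fell, 1 receptor or partner rose, 1 iron or copper gene rose, and 5 relatives fell and 1 rose. It changed no other call by over 1.5 times. With chip lot as a block 368 probe sets were higher, 2 interleukin-6 pathway genes fell, and 1 positive acute-phase gene rose, 1 receptor or partner fell and 1 iron or copper gene rose. With no filter on low signal 72 were higher and 136 lower, 0 NF-kB pathway genes fell and 1 negative acute-phase gene fell; more probe sets were then tested. With a minimum of 500, which leaves fewer genes, 0 interleukin-6 pathway, 1 NF-kB pathway and 0 iron or copper genes fell. Within lot C, where 1 confluent array stands against 2 and is assumed to vary like them, few calls are possible: 2 probe sets were higher and 3 lower, and 0 genes of any list passed (limma). Leaving out each array gave 18 to 342 higher and 80 to 345 lower. Positive acute-phase genes that rose and fell then ran from 0 to 1 and from 2 to 7, interleukin-6 pathway genes that fell from 0 to 2, NF-kB pathway genes from 0 to 5, relatives from 1 to 3, and regulators that rose from 0 to 1. Other causes were not tested. Of the 3 closest genes 2 were kept for Saa3, 3 for Hp, 2 for Serpina3n 0 for Cp, 0 and 1 for the first and second Lcn2 probe sets and 1 for Orm1 with a constant of 150. Signals near the scaled noise limit the first Lcn2 probe set, Orm1 and the subconfluent values of Saa3 and Cp.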

Other observations

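Ptx3, a pentraxin made by vascular cells, named after its values were seen, had signals of 199.5, 151.2, 262.9 and 174.7 on confluent replicates 1 to 4 and 732.1, 146.8, 1276 and 1388 on subconfluent replicates 1 to 4. It was higher on 3 of the 4 subconfluent arrays than on any confluent array (log2 1.59, limma adjusted p = 0.0840; 0.0176 in the paired fit), and on subconfluent replicate 2 it was low, as were Osmr, Cebpd and Cp. Cd14, the receptor to which Lbp hands lipopolysaccharide, stood at -0.70, without overlap between the groups (limma adjusted p = 0.0563; 0.0228 with the block).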
